A study of Mus musculus with 2 samples.

Results

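Pericytes are mural cells that sit on capillaries and small venules inside the vessel's basement membrane. The nuclei described here come from the newborn mouse ureter, the muscular tube that carries urine from the kidney to the bladder. They were chosen by the UMIs (unique molecular identifiers, the counted RNA molecules) of 26 genes in each nucleus. A member had a UMI for at least 2 of 7 pericyte genes (Rgs5, Kcnj8, Abcc9, Notch3, Cspg4, Higd1b, Vtn), for at most 1 of 5 endothelial genes (Ptprb, Pecam1, Flt1, Emcn, Egfl7), for at most 1 of 8 epithelial genes (Cdh1, Epcam, Grhl2, Elf3, Esrp1, Macc1, Ehf, Myo5b) and for at most 2 of 6 ureter muscle genes (Myocd, Synpo2, Cacna2d3, Ryr3, Stac, Actg2). Of 14380 nuclei with at least 300 genes and at most 5% mitochondrial UMIs, 287 met this rule.

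The study took ureters at postnatal day 0 from a conditional knockout of the ΔN isoform of the transcription factor p63 and from controls. The DNp63cKO library was made from 14 pooled mice of genotype Pax2-cre/+;DNp63fl/fl;R26mTmG/+, and the control library from 13 pooled mice whose genotype is labelled wt. Pax2-cre is active in the nephric duct and its epithelial derivatives, which include the ureter lining. The mTmG allele is a fluorescent Cre reporter. Whether any control mouse carried the driver or the reporter is not stated. Each genotype was 1 pool, 1 suspension of nuclei and 1 library on a microwell single-nucleus kit, so no difference between the genotypes has a replicate check, no p-value can be given, and every interval below covers counting error only. The deposited matrices hold 5528 DNp63cKO nuclei with 9859451 UMIs and 9062 control nuclei with 16063644 UMIs, with medians of 1298 UMIs per DNp63cKO nucleus and 1124.5 UMIs per control nucleus. A total of 58 barcodes occurred in both libraries, and 1 DNp63cKO member and 2 control members carried such a barcode. Trp63, which encodes p63, had 117 CPM (its UMIs scaled to the same total of UMIs in every set) in DNp63cKO epithelium and 166 CPM in control epithelium. The counts join all isoforms and any exon left in the knockout, so this is no check of the deletion.

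Pericytes receive platelet-derived growth factor from the endothelium through the receptor PDGFRB, and Jagged and Delta-like ligands through NOTCH3, and both signals keep them on the vessel. They set capillary tone and the permeability of the vessel wall. Kcnj8 and Abcc9 encode Kir6.1 and SUR2, the pore and the regulatory subunit of the vascular ATP-sensitive potassium channel. Rgs5 encodes a regulator of G protein signalling, and Cspg4 the surface proteoglycan NG2. Vascular smooth muscle shares most of these genes, and the rule has no gene that separates it from pericytes.

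Kcnj8 and Abcc9 lie side by side on the minus strand of chromosome 6. On GRCm38, Kcnj8 spans chr6:142564837-142571614 and Abcc9 spans chr6:142587862-142702315, which leaves 16.2 kb between them. Their promoters are shown because they encode both subunits of 1 channel, and the Notch3 promoter because that receptor gene and Abcc9 had the highest levels of the rule's genes in the pericyte-like nuclei described below. Each is the RefSeq promoter on GRCm38.p6, from 250 bases before to 50 bases after the annotated start, written 5′ to 3′ on the gene's strand (chr6:142571565-142571864 minus, chr6:142702225-142702524 minus and chr17:32166841-32167140 minus). Capitals mark TGGGAA, the core that the Notch partner RBPJ binds, and CCCNNGGG, the core of the EBF site, on either strand.
Kcnj8: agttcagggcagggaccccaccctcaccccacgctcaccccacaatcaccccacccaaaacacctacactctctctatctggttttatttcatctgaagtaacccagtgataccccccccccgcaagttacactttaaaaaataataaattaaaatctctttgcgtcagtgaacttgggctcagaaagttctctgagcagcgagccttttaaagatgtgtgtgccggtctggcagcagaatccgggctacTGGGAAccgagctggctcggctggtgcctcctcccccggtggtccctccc
Abcc9: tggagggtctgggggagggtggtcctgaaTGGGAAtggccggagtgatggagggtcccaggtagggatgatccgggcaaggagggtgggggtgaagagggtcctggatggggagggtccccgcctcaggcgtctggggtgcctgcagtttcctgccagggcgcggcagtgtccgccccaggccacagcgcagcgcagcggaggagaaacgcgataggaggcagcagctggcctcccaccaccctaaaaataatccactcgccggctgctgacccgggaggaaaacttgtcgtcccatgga
Notch3: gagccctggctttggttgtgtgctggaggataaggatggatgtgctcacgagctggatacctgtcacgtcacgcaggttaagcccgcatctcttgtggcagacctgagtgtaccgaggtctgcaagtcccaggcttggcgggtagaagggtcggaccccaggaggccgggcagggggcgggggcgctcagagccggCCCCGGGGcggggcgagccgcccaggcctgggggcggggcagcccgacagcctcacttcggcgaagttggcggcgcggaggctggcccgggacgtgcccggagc
Of the 32 genes made up of the 7 pericyte genes and the 25 leading genes below, 26 had a promoter in the table. TGGGAA occurred in a promoter of 10 of the 26 genes (38.5%), against 28.3% of all 27025 genes, and CCCNNGGG in a promoter of 5 (19.2%), against 15.4% of all genes. These matches describe letters in a 300-base window and nothing about binding.

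The members made up 120 of 5491 DNp63cKO nuclei (2.19%, exact binomial 95% interval 1.82 to 2.61) and 167 of 8889 control nuclei (1.88%, 1.61 to 2.18). Their median was 1141 UMIs and 883.5 genes per nucleus in DNp63cKO and 1031 UMIs and 797 genes in control. The 2 intervals overlapped. The control library holds relatively more epithelial nuclei. Among nuclei with at most 1 epithelial gene, the members were 3.55% in DNp63cKO and 3.36% in control. When every nucleus was thinned to 700 UMIs, which left out shallower nuclei, the rule found 74 of 4704 DNp63cKO nuclei (1.57%) and 124 of 6992 control nuclei (1.77%), so the order of the libraries turned round. Of those thinned members, 12 in DNp63cKO and 38 in control were over the epithelial limit at full depth.

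Most of the members fell outside a pericyte-like cluster. Whether the nuclei inside it were pericytes or vascular smooth muscle was not tested. Clustering all kept nuclei, with the rule's genes among the genes used, gave 1 pericyte-like cluster of 167 nuclei, 86 from DNp63cKO and 81 from control. It was led by Ctnna3, Kcnab1, Dgkb, Sema5b, Slc7a2, Pdgfrb, Ebf1, Inpp4b, Olfr78 and Trpc6. It held 41 of the 120 DNp63cKO members (34.2%, 25.8 to 43.4) and 36 of the 167 control members (21.6%, 15.6 to 28.6). Clusters whose highest markers were those of ureter muscle held 40 DNp63cKO members and 62 control members. Fibroblast clusters held 24 DNp63cKO members and 26 control members, epithelial clusters held 13 in DNp63cKO and 38 in control, and endothelial, glial and neuronal clusters together held the few that remained. Epithelial clusters therefore took 10.8% of the DNp63cKO members and 22.8% of the control members, a gap with the opposite direction to the share in the pericyte-like cluster. The comparisons below are given for all members and, where the UMIs allow, for the members in the pericyte-like cluster, and the mix of clusters stands beside both.

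The pericyte-like cluster was picked as the one with the highest summed CPM of the rule's pericyte genes. A larger share in it with more of those genes is therefore partly built in, and the counts here are a description. Just inside the threshold, at 2 genes, 18 of 90 DNp63cKO nuclei (20%) and 18 of 137 control nuclei (13.1%) were in the cluster. At 3 genes the counts were 16 of 22 in DNp63cKO and 14 of 26 in control, and at 4 genes 7 of 8 in DNp63cKO and 3 of 3 in control. Just outside the threshold, at 1 gene, 18 of 557 DNp63cKO nuclei (3.23%) and 16 of 1048 control nuclei (1.53%) that met the other limits were in it. Ebf1 at 1, 2 and 3 genes had 360, 811 and 2691 CPM in DNp63cKO and 180, 345 and 1587 CPM in control. The rule also left out 45 nuclei of the cluster in each library, of which 29 in DNp63cKO and 27 in control had under 2 pericyte genes, and 14 in DNp63cKO and 18 in control were over the epithelial limit.

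**Figure D1:**
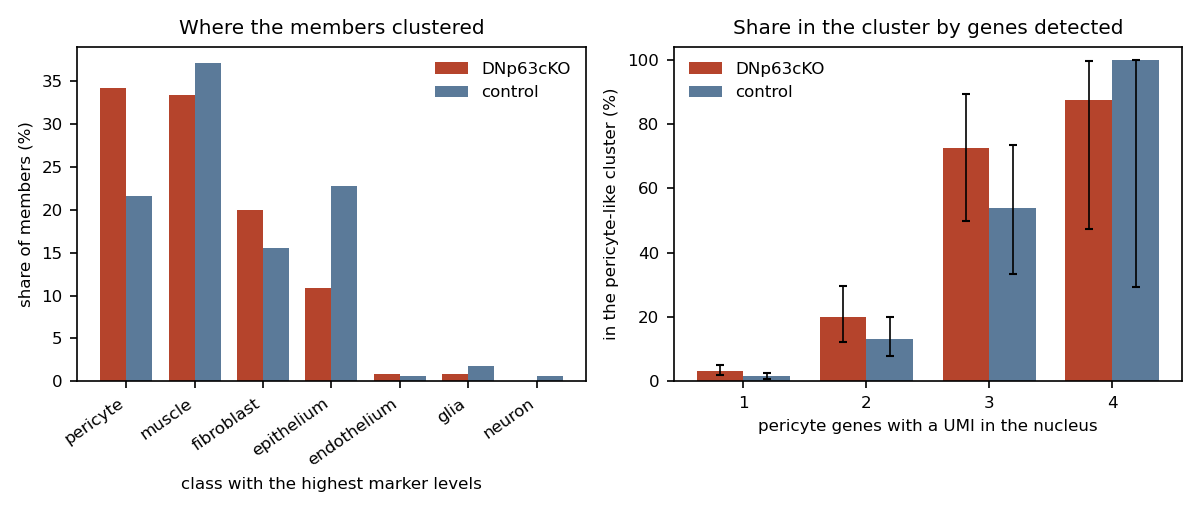
Left, share of the members (%) in clusters of each class, named by the class with the highest marker levels, for 120 DNp63cKO members and 167 control members. Right, share (%) in the pericyte-like cluster of nuclei that met the rule's other limits, by the number of pericyte genes with a UMI, with exact binomial 95% intervals. The pericyte-like cluster held 34.2% of the DNp63cKO members and 21.6% of the control members. The share grew with the number of genes, which is partly built in because the same genes picked the cluster.

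The combination of genes that admitted a nucleus differed between the libraries. Rgs5 with Notch3 and no other pericyte gene admitted 20 DNp63cKO members, 2 of them in the cluster, and 52 control members, 7 of them in the cluster. Abcc9 with Notch3 alone admitted 23 members in DNp63cKO and 11 in control. Rgs5 had a UMI in 43.3% of DNp63cKO members and 64.1% of control members, and Abcc9 in 65.8% of DNp63cKO members and 43.1% of control members. At 700 UMIs per nucleus, which kept 95 DNp63cKO members and 130 control members, the Rgs5 share was 27.4% in DNp63cKO and 43.1% in control, and the Abcc9 share 42.1% in DNp63cKO and 28.5% in control. In epithelium, where a UMI of a pericyte gene is background or expression outside the mural lineage, the thinned Rgs5 share was 6.65% in DNp63cKO and 18.4% in control, at medians before thinning of 2163.5 UMIs in DNp63cKO and 2112 UMIs in control. The thinned Abcc9 share there was 0.750% in DNp63cKO and 0.605% in control. Rgs5 stood at 80.2 CPM (70.0 to 91.4) in DNp63cKO epithelium and 391 CPM (373 to 409) in control epithelium, against 61.0 CPM in DNp63cKO and 120 CPM in control endothelium, and 19.9 CPM in DNp63cKO and 67.7 CPM in control muscle. The Rgs5 level of control epithelium was thus above that of control endothelium and muscle. The other pericyte genes had at most 162 CPM in these classes, for Abcc9 in DNp63cKO muscle.

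Abcc9 and Notch3 had the highest levels of the rule's genes in the pericyte-like cluster. Abcc9, the SUR2 subunit, had 85 UMIs or 2018 CPM (exact Poisson 95% interval 1612 to 2495) in the 41 DNp63cKO members of the cluster and 61 UMIs or 1648 CPM in the 36 control members. In the members of other clusters it had 675 CPM in DNp63cKO and 378 CPM in control, and in muscle, its next highest class, 162 CPM in DNp63cKO and 150 CPM in control. Notch3 had 1899 CPM in DNp63cKO and 2054 CPM in control cluster members, and at most 108 CPM in DNp63cKO and 94.6 CPM in control in fibroblasts, the highest of the other classes. Both genes were therefore several times higher in the cluster's members than in any other class in both libraries, as the rule and the choice of the cluster make likely. Kcnj8 had 20 UMIs (475 CPM) in DNp63cKO cluster members and 5 UMIs (135 CPM) in control cluster members. In the members of other clusters it had 12 UMIs (111 CPM) in DNp63cKO and 23 UMIs (138 CPM) in control, so Kcnj8 was higher inside the cluster in DNp63cKO only. Cspg4 had 475 CPM in DNp63cKO and 622 CPM in control cluster members. Higd1b and Vtn, markers of pericytes in other mouse organs, were almost silent: over all members Higd1b had 3 UMIs in DNp63cKO and 5 UMIs in control, and Vtn 1 UMI in DNp63cKO and 0 UMIs in control, so the rule rested on 5 genes.

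**Figure D2:**
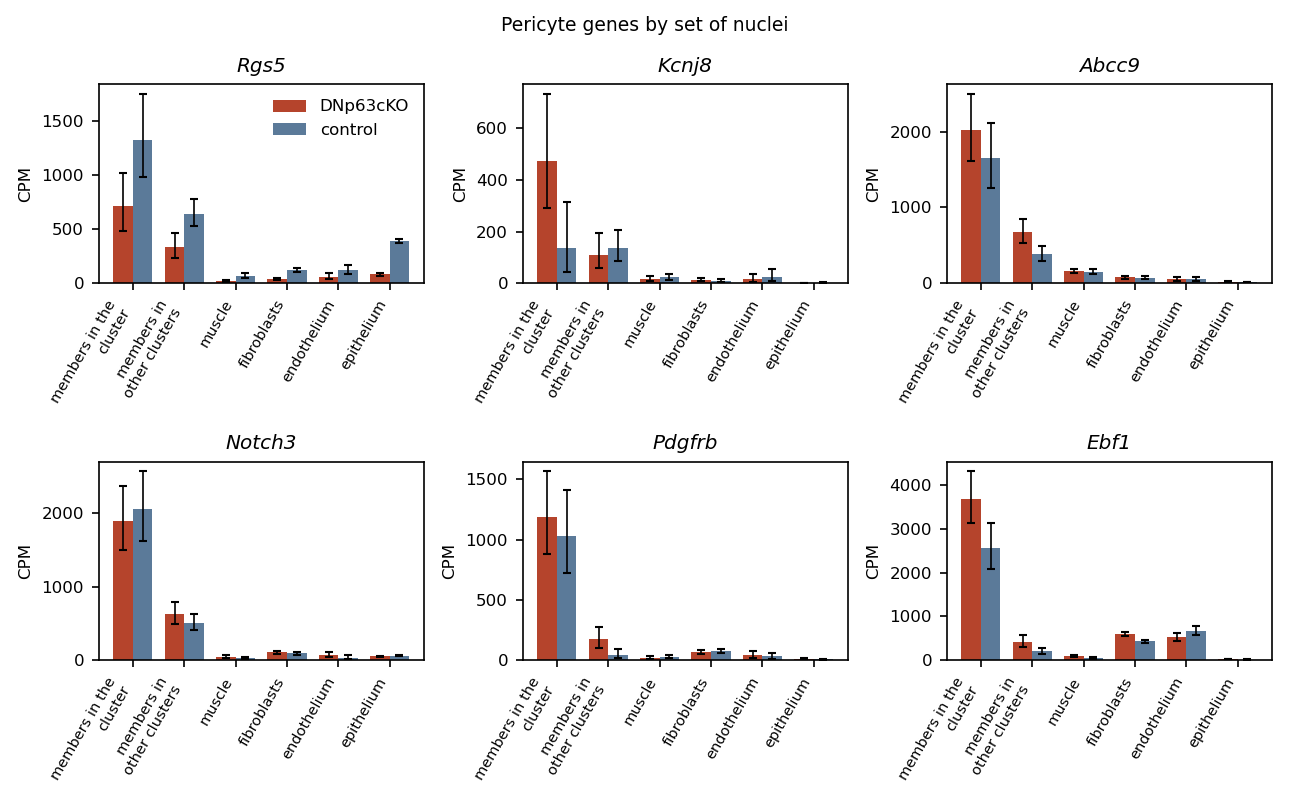
Level (CPM) of 4 pericyte genes used by the rule and of Pdgfrb and Ebf1, which it did not use, in the members inside and outside the pericyte-like cluster and in muscle, fibroblasts, endothelium and epithelium, for DNp63cKO and control, with exact Poisson 95% intervals. Members in the cluster are highest for each gene except Kcnj8 in control, at 135 CPM inside the cluster and 138 CPM outside it, and Rgs5 reaches 391 CPM in control epithelium.

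Pdgfrb and Ebf1 were not used by the rule, but they were among the genes that led the cluster, so their levels describe it and are no test of the split. Pdgfrb, the platelet-derived growth factor receptor, had 1187 CPM (881 to 1565) in DNp63cKO cluster members and 1027 CPM (727 to 1409) in control cluster members, but 176 CPM in DNp63cKO and 48.0 CPM in control members of other clusters. Muscle had 21.0 CPM in DNp63cKO and 29.4 CPM in control, and fibroblasts 66.4 CPM in DNp63cKO and 77.8 CPM in control. Ebf1, an EBF family transcription factor, had 3680 CPM in DNp63cKO and 2567 CPM in control cluster members. Its level in members of other clusters, 425 CPM in DNp63cKO and 204 CPM in control, was below that of fibroblasts in both libraries (596 CPM in DNp63cKO and 431 CPM in control). Both genes were thus lower in the members outside the cluster than in those inside it in both libraries.

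The 25 genes that led the members over all other kept nuclei in both libraries fell into a few roles. Receptors and guidance proteins were Pdgfrb, Ednra (the endothelin A receptor), Agtr1a (an angiotensin II receptor), Nrp1, Olfr78 (an olfactory-type receptor found in vascular mural cells) and Sema5b. The nitric oxide and cGMP pathway gave Gucy1a1 and Gucy1a2, subunits of soluble guanylate cyclase, and Prkg1, the cGMP-dependent kinase. Transcription factors were Ebf1, Ebf3, Mef2c and Zeb2. Ctnna3 (an α-catenin), Kcnab1 (a potassium channel β subunit), Slc7a2 (a cationic amino acid transporter), Dgkb, Inpp4b, Gpc6, Dock10, Egflam, Afap1l2, Morrbid, Sgip1 and Serpini1 made up the rest. Sema5b led with 253 CPM in DNp63cKO members against 11.3 CPM in the other DNp63cKO nuclei, and 182 CPM in control members against 6.23 CPM in the other control nuclei. For 20 of the 25, over 50% of the members' UMIs came from the cluster in both libraries: for Inpp4b, 29 of 30 UMIs in DNp63cKO and 23 of 25 in control, for Ctnna3, 29 of 30 in DNp63cKO and 31 of 34 in control, and for Olfr78, 9 of 9 in DNp63cKO and 14 of 14 in control. The other 5 were Egflam, Zeb2, Sgip1, Nrp1 and Serpini1. Nrp1, a semaphorin and VEGF coreceptor with 578 CPM in DNp63cKO and 759 CPM in control endothelium, had 31 UMIs in DNp63cKO and 35 UMIs in control members of the cluster.

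Gene families set the cluster's members apart from muscle and fibroblasts. Of 30 mural identity genes outside the rule, 15 had 10 or more UMIs in the cluster's members. Of these, 12 were at least 2-fold higher than in muscle in both libraries and 13 at least 2-fold higher than in fibroblasts. Of all 2155 genes with that many UMIs, 10.4% were 2-fold or more higher than in muscle and 8.68% than in fibroblasts. Of 30 vasoactive receptor and cGMP genes, 9 were measured and 7 stood at least 2-fold above both muscle and fibroblasts. Of 20 genes of the contractile apparatus, 16 were measured and 11 were at least 2-fold lower than in muscle in both libraries, against 4.36% of all genes. Acta2, smooth muscle actin, had 736 CPM in DNp63cKO and 1027 CPM in control cluster members, against 3994 CPM in DNp63cKO and 4774 CPM in control muscle. Endothelium had 1378 CPM in DNp63cKO and 1159 CPM in control, in a cell type that should lack it. The Acta2 level of the cluster's members was thus below that of endothelium. After thinning to 700 UMIs, Acta2 had a UMI in 38.5% of DNp63cKO and 48.0% of control cluster members. The thinned share was 47.0% in DNp63cKO and 38.8% in control endothelium, and 48.7% in DNp63cKO and 52.8% in control fibroblasts. In epithelium it was 23.1% in DNp63cKO and 17.0% in control. Before thinning, Acta2 had a UMI in 53.7% of DNp63cKO and 52.8% of control cluster members. The whole contractile list summed to 9070 CPM in DNp63cKO and 10647 CPM in control cluster members, against 8300 CPM in DNp63cKO and 7075 CPM in control endothelium. Myh11, smooth muscle myosin, had 926 CPM in DNp63cKO and 1297 CPM in control cluster members, against 797 CPM in DNp63cKO and 631 CPM in control endothelium. In these libraries most measured contractile genes were thus lower in the pericyte-like nuclei than in muscle, and most measured receptor and cGMP genes higher. These counts describe a cluster built from the same genes and are no test.

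Between the genotypes, most genes stayed within 2-fold. All members together held 150276 UMIs in DNp63cKO and 203526 UMIs in control, and 5097 genes had 20 or more UMIs over both libraries together. Of these, 122 were 2-fold or more higher in DNp63cKO (2.39%) and 131 were 2-fold or more lower (2.57%), with a median log2 ratio of -0.01. The cluster's members held only 42117 UMIs in DNp63cKO and 37005 UMIs in control, and among 701 genes 51 were 2-fold or more higher (7.28%) and 40 lower (5.71%). Ratios are log2 of DNp63cKO over control after adding 20 CPM to each, which shrinks those of low genes. Their intervals come from the counts without that addition. With 1 library per genotype these counts cannot be told apart from differences between the libraries.

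Among the rule's own genes, none of the 5 that were measured differed by 2-fold in all members, beside 2.39% of all genes higher and 2.57% lower by that fold. The values are descriptions, because these genes chose the members. Rgs5 had 66 UMIs (439 CPM) in DNp63cKO members and 156 UMIs (766 CPM) in control members, a log2 ratio of -0.78 (-1.24 to -0.38). In the cluster's members it had 712 CPM in DNp63cKO and 1324 CPM in control (log2 -0.88, -1.60 to -0.21). The Rgs5 level was thus lower in DNp63cKO members inside the cluster and outside it, as it was in endothelium, muscle, fibroblasts and epithelium. Nuclei of the cluster that were not members had close Rgs5 levels, with 506 CPM (358 to 695) for DNp63cKO against 522 CPM (366 to 723) for control. With members and non-members joined, the DNp63cKO nuclei of the cluster had 580 CPM (451 to 735). The control nuclei had 802 CPM (641 to 992), an interval that overlapped the DNp63cKO interval. Abcc9 was higher in all DNp63cKO members (1051 CPM against 609 CPM in control, log2 0.77), but in the cluster's members the log2 ratio was 0.29 (-0.20 to 0.79). Notch3 had log2 ratios of 0.31 in all members and -0.11 in the cluster, and Cspg4 of 0.04 and -0.37. Kcnj8 had 0.56 (-0.15 to 1.42) in all members and 1.67 (0.36 to 3.58) in the cluster, from 20 UMIs in DNp63cKO and 5 UMIs in control. Over the whole cluster, members or not, Kcnj8 had 30 UMIs in 18 of 86 DNp63cKO nuclei and 14 UMIs in 10 of 81 control nuclei.

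Mural identity genes were higher in DNp63cKO when all members were pooled, and close to equal within the cluster. Of the 30 identity genes outside the rule, 16 were measured at that minimum. The ratio was above 0 for 14 and at least 2-fold for 4, with none at least 2-fold lower. Of all genes, 2.39% were higher and 2.57% lower by that fold. The median log2 ratio of the list was 0.61, against -0.01 for all genes. Pdgfrb had 459 CPM in DNp63cKO members and 226 CPM in control members (log2 0.96, 0.46 to 1.59), Ebf1 1338 CPM in DNp63cKO and 634 CPM in control (1.05, 0.75 to 1.41), and Gucy1a1 359 CPM in DNp63cKO and 167 CPM in control (1.02, 0.46 to 1.77). In the cluster's members 10 of the 30 were measured, with 5 above and 5 below 0 and a median of 0.04. Pdgfrb there had a log2 ratio of 0.21 (-0.43 to 0.86), and Ebf1 0.52 (0.14 to 0.90). The share of members in the cluster, 34.2% in DNp63cKO and 21.6% in control, moved with the pooled difference.

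The vasoactive and transcription factor lists also had medians above 0 in all members, and the vasoactive median stayed above 0 in the cluster's members. Of 10 measured vasoactive receptor and cGMP genes, 8 had a ratio above 0 in all members. At least 2-fold higher were 2 of them, beside 2.39% of all genes. Calcrl, a receptor that endothelium expresses, was the 1 gene at least 2-fold lower (log2 -1.04), beside 2.57% of all genes. The list had a median log2 ratio of 0.69. In the cluster's members 7 of 8 were above 0 (median 0.41) and none reached 2-fold, beside 7.28% of all genes higher and 5.71% lower. The summed level of the list there had a log2 ratio of 0.10 (-0.13 to 0.32), an interval that includes 0. Over all nuclei of the cluster 5 measured genes of the list were above 0 and 4 below (median 0.13). Their summed ratio was 0.01 (-0.14 to 0.16). Prkg1 had 1557 CPM in DNp63cKO and 909 CPM in control members, but 3751 CPM in DNp63cKO and 3594 CPM in control cluster members, where the log2 ratio was 0.06 (-0.28 to 0.41). Gucy1a2 kept a log2 ratio of 0.94 (0.11 to 1.89) in the cluster's members, from 38 UMIs in DNp63cKO and 17 UMIs in control, and 0.91 (0.36 to 1.58) over all nuclei of the cluster. Of 23 measured mural transcription factors, 20 were above 0 in all members (median 0.30), and 6 of 14 in the cluster (median -0.08). Zeb1, a repressor of epithelial genes, had 926 CPM in DNp63cKO and 540 CPM in control cluster members, from 39 UMIs in DNp63cKO and 20 UMIs in control.

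The contractile and matrix lists had medians below 0 in all members. For the contractile apparatus 14 of 18 measured genes were below 0 (median -0.23), and 9 of 12 in the cluster's members (median -0.32). Acta2 had 1870 CPM in DNp63cKO members and 2476 CPM in control members. For the interstitial matrix 17 of 22 were below 0 (median -0.22), and 6 of 10 in the cluster's members (median -0.08). Col3a1, a fibrillar collagen, had 2708 CPM in DNp63cKO and 4555 CPM in control members (log2 -0.75, -0.92 to -0.58), and 1021 CPM in DNp63cKO and 1892 CPM in control cluster members (-0.88, -1.47 to -0.32). Over all nuclei of the cluster the Col3a1 ratio was -0.09 (-0.44 to 0.25), an interval that includes 0. The 8 genes that chose the fibroblast set, Col3a1 not among them, summed to 2683 CPM in DNp63cKO and 3675 CPM in control cluster members. In fibroblasts they summed to 13346 CPM in DNp63cKO and 16097 CPM in control. The summed level of these 8 genes was thus lower in DNp63cKO cluster members, as Col3a1 was. The part of fibroblast RNA in the Col3a1 ratio was not tested.

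Signalling and basement membrane lists had medians on both sides of 0 in all members, and few of their genes were measured in the cluster's members. Of 9 measured Notch pathway genes, 4 were above 0 and 5 below (median -0.11), and of 17 TGF-β and BMP pathway genes 15 were below 0 (median -0.22). Within the cluster 2 genes of each list were measured, and all were below 0. Bmpr1a, a BMP receptor, had 146 CPM in DNp63cKO and 285 CPM in control members, and 166 CPM in DNp63cKO and 324 CPM in control cluster members. Jag1, a Notch ligand, had 59.9 CPM in DNp63cKO and 133 CPM in control members, and in the cluster's members 119 CPM from 5 UMIs in DNp63cKO and 351 CPM from 13 UMIs in control. Of 13 measured growth factor genes (the PDGF, VEGF, angiopoietin and IGF families with Cxcl12), 9 were above 0 (median 0.38), but 1 of 3 in the cluster's members (median -0.35). Pdgfd, a PDGFRB ligand, had 240 CPM in DNp63cKO and 103 CPM in control members, and in the cluster's members 11 UMIs in DNp63cKO and 3 UMIs in control. Of 17 basement membrane genes 12 were below 0 (median -0.23), 3 of them at least 2-fold, beside 2.57% of all genes. In the cluster's members, however, 4 of 6 were above 0 (median 0.11). Nid1 had 99.8 CPM in DNp63cKO members and 290 CPM in control members, and Col4a1 had 699 CPM in DNp63cKO members and 771 CPM in control members. Within the cluster Nid1 had 5 UMIs in DNp63cKO and 13 UMIs in control, and Col4a1 had 1258 CPM in DNp63cKO and 1054 CPM in control. Of 7 measured sonic hedgehog response genes 6 were below 0 (median -0.51), and none had enough UMIs in the cluster's members to be measured.

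**Figure D3:**
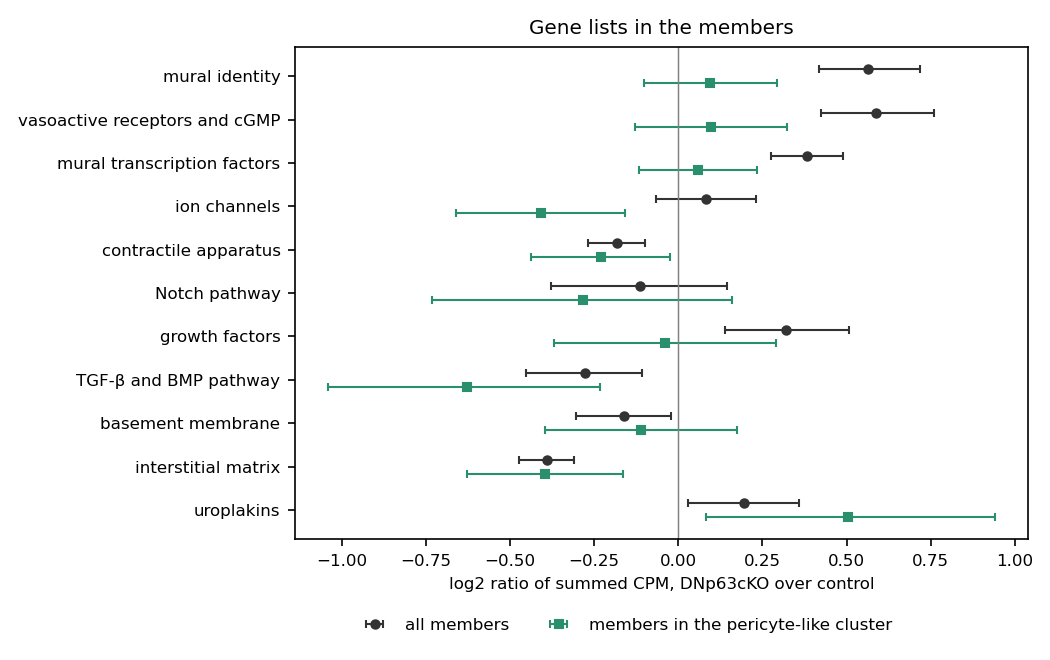
Log2 ratio, DNp63cKO over control, of the summed level (CPM) of each gene list, for all members (circles) and for the members in the pericyte-like cluster (squares), with exact 95% intervals that cover counting error only. The mural identity, vasoactive and transcription factor lists lie above 0 in all members and near 0 in the cluster, and the ion channel list lies near 0 in all members and below 0 in the cluster.

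The summed ion channel level had a log2 ratio of 0.08 (-0.06 to 0.23) in all members and -0.41 (-0.66 to -0.16) in the cluster's members. Of 14 measured channel genes 7 were above 0 and 7 below in all members (median -0.02). In the cluster's members all 10 measured genes of the list were below 0 (median -0.43), 3 of them at least 2-fold. Those 3 were Kcnab1, the cation channel gene Trpc6 and Itpr1, an IP3 receptor. Of all 701 genes measured there, 353 were below 0 and 5.71% were 2-fold or more lower. The list left out the rule's channel genes Kcnj8 and Abcc9, which had the higher level in DNp63cKO cluster members. Kcnj8 had 475 CPM (290 to 733) in DNp63cKO and 135 CPM (43.9 to 315) in control cluster members. Abcc9 had 2018 CPM (1612 to 2496) in DNp63cKO and 1648 CPM (1261 to 2117) in control cluster members. Kcnab1 had 11 UMIs (261 CPM) in DNp63cKO and 32 UMIs (865 CPM) in control cluster members, a log2 ratio of -1.65 (-2.86 to -0.70). Over all nuclei of the cluster it had 28 UMIs in 12 of 86 DNp63cKO nuclei and 109 UMIs in 33 of 81 control nuclei (log2 -2.02, -2.76 to -1.50). No nucleus held more than 11 of these UMIs. Endothelium, muscle, fibroblasts and epithelium had 16 CPM of Kcnab1 or less in either library. The cluster held 28 of the 87 Kcnab1 UMIs of all kept DNp63cKO nuclei and 109 of the 204 of all kept control nuclei. The other Kcnab1 UMIs lay in nuclei outside the cluster. Cacna1c, the L-type calcium channel, had 309 CPM in DNp63cKO and 459 CPM in control cluster members.

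Among the genes with the highest ratios over all members were Mgat4c, Lgi1, Zfp804b, Egr1, Mrvi1, Enox1, Camk1, Rasgrp2, Xrn2, Piezo2 and Zfp948, with log2 ratios of 2.36 for Mgat4c down to 1.49 for Zfp948. Some came from the cluster. Lgi1, a secreted synaptic protein in brain, had 20 UMIs in 15 DNp63cKO members and 2 UMIs in control members, of which 16 in DNp63cKO and 2 in control were in the cluster. Over all nuclei of the cluster Lgi1 had 28 UMIs in DNp63cKO and 14 UMIs in control (log2 0.77, -0.12 to 1.89). Enox1, an electron transfer enzyme, had 24 UMIs (570 CPM) in DNp63cKO and 1 UMI (27.0 CPM) in control cluster members, and 27 UMIs in DNp63cKO and 9 UMIs in control over all nuclei of the cluster. Mrvi1, a cGMP kinase substrate that restrains calcium release in smooth muscle, had 29 UMIs (689 CPM) in DNp63cKO and 11 UMIs (297 CPM) in control cluster members (log2 1.16, 0.17 to 2.36). Zfp804b had 23 UMIs in DNp63cKO and 5 UMIs in control cluster members, and 27 UMIs in DNp63cKO and 13 UMIs in control over all nuclei of the cluster (log2 0.81, -0.10 to 1.99). Mgat4c in the members rested largely on a single nucleus: 11 of its 20 UMIs in DNp63cKO were from 1 nucleus outside the cluster. The gene was also higher in DNp63cKO outside the members, at 57.9 CPM against 11.8 CPM in control over all other kept nuclei. Its log2 ratio was 1.59 in fibroblasts, 1.61 in endothelium, 1.29 in muscle and 0.30 in epithelium. Over all nuclei of the cluster it had 1 UMI in DNp63cKO and 1 UMI in control.

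The genes with the lowest ratios were Myh8, Mybpc1, Ttn, Trp63, Junos, Mtor, Ogn, Scp2, Rybp, Hhip, Thbs2 and Ctsl. Myh8, Mybpc1 and Ttn, genes of skeletal muscle, had 0, 0 and 1 UMIs in DNp63cKO members and 23, 20 and 26 UMIs in control members, of which 22, 19 and 22 were in 1 control nucleus outside the cluster. They describe that nucleus, not the group. Trp63 had 5 UMIs (33.3 CPM) in DNp63cKO members and 38 UMIs (187 CPM) in control members, of which 1 in DNp63cKO and 4 in control were in the cluster. Its levels in epithelium, given above, and the share of members in epithelial clusters moved the same way. Ogn and Thbs2, matrix genes, had 3 and 16 UMIs in DNp63cKO and 23 and 74 UMIs in control members. Thbs2 had 5 UMIs in DNp63cKO and 4 UMIs in control cluster members.

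Uroplakins, the membrane plaque proteins of the ureter's superficial cells, were read in most members. The 6 uroplakin genes summed to 558 UMIs or 3713 CPM (3411 to 4034) in DNp63cKO members and 660 UMIs or 3243 CPM (3000 to 3500) in control members, a log2 ratio of 0.19 (0.03 to 0.36). The ratio was -0.91 for members chosen after thinning and -0.02 with free RNA subtracted. The share of the epithelial profile subtracted, 30.5% in DNp63cKO and 28.7% in control, equals the members' uroplakin level as a percent of epithelium. A uroplakin ratio near 0 after subtraction was therefore built in and is no check. Other epithelial lists went the other way in all members. There 19 further urothelial genes summed to 7559 CPM in DNp63cKO and 8677 CPM in control (log2 -0.20, -0.31 to -0.09), with 11 of 14 measured genes below 0. In members of other clusters these 19 genes had 8275 CPM in DNp63cKO and 9494 CPM in control. They were higher in DNp63cKO in endothelium (5864 against 5034 CPM in control) and muscle (4861 against 4728 CPM). The same held in fibroblasts (6455 against 5869 CPM) and epithelium (26747 against 23652 CPM). The rule's 8 epithelial genes, which it held to at most 1 per nucleus, summed to 346 CPM in DNp63cKO and 540 CPM in control members (log2 -0.61, -1.15 to -0.15). In the cluster's members the sums were 123 UMIs or 2920 CPM (2427 to 3484) in DNp63cKO and 76 UMIs or 2054 CPM (1618 to 2571) in control, a log2 ratio of 0.50 (0.08 to 0.94), and the 19 urothelial genes had a log2 ratio of 0.19 (-0.09 to 0.48). Endothelium, muscle and fibroblasts also had the higher sum in DNp63cKO, at 2462 CPM against 2024 CPM in control endothelium, 2248 CPM against 1792 CPM in control muscle and 2825 CPM against 2192 CPM in control fibroblasts. The uroplakin level outside the epithelium was thus higher in the DNp63cKO library in each of these classes, by log2 ratios of 0.28, 0.32 and 0.36. Epithelium itself had 12186 CPM in DNp63cKO and 11306 CPM in control, a log2 ratio of 0.11.

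Set against the epithelium of the same library, the cluster's members carried 24.0% of its uroplakin level in DNp63cKO and 18.2% in control. Endothelium carried 20.2% in DNp63cKO and 17.9% in control, muscle 18.5% in DNp63cKO and 15.8% in control, and fibroblasts 23.2% in DNp63cKO and 19.4% in control. The cluster's members were thus within the range of cell types that should lack uroplakins in control and close to it in DNp63cKO, and all members, at 30.5% in DNp63cKO and 28.7% in control, were above it. Members in epithelial clusters had 8656 CPM in DNp63cKO and 6672 CPM in control, and those admitted by Rgs5 and Notch3 alone had 6641 CPM in DNp63cKO and 4766 CPM in control. A uroplakin UMI was found in 85% of DNp63cKO members (77.3 to 90.9) and 88.0% of control members (82.1 to 92.5). At 700 UMIs per nucleus, 25 DNp63cKO and 37 control members were too shallow and were left out. The shares were then 81.1% (71.7 to 88.4) in DNp63cKO and 77.7% (69.6 to 84.5) in control. Their order turned round, but the intervals overlapped before and after thinning. In the cluster's members the shares were 76.9% in DNp63cKO and 72.0% in control after thinning.

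Upk1b had the largest share and Upk2 the smallest share of 4 uroplakins in the members and in the other classes. Of the UMIs of Upk1a, Upk1b, Upk2 and Upk3a together, Upk1b made up 42.9% in DNp63cKO members and 39.6% in control members, against 39.9% in DNp63cKO and 43.5% in control epithelium. Upk3a made up 30.02% in DNp63cKO and 34.1% in control members, against 31.5% in DNp63cKO and 31.0% in control epithelium. Upk1a made up 21.7% in DNp63cKO and 20.3% in control members, against 21.5% in DNp63cKO and 20.4% in control epithelium. The Upk3a share was 24.2% in DNp63cKO and 32.9% in control cluster members. The Upk2 share was 8.33% in DNp63cKO and 4.11% in control cluster members, and 8.84% in DNp63cKO and 4.68% in control endothelium. Upk2 had 10 UMIs in DNp63cKO and 3 UMIs in control cluster members. It was also the uroplakin with the highest ratio in endothelium (log2 1.04) and in muscle (log2 0.77). In fibroblasts Upk1a was higher (log2 0.65 against 0.41 for Upk2). In all members the Upk2 ratio was 0.009, and in members of other clusters -0.27. In epithelium Upk2 had 840 CPM in DNp63cKO and 567 CPM in control. Erythroid markers, genes of red cells, summed to 33 UMIs in DNp63cKO and 6 UMIs in control cluster members, and to 146 UMIs in DNp63cKO and 225 UMIs in control in the other members.

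**Figure D4:**
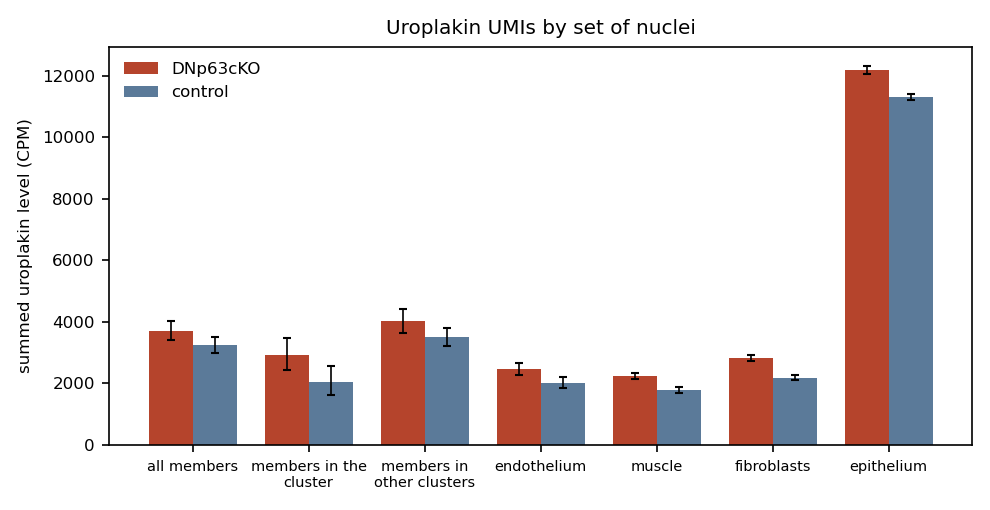
Summed level (CPM) of the 6 uroplakin genes in the members, inside and outside the pericyte-like cluster, and in endothelium, muscle, fibroblasts and epithelium, for DNp63cKO and control, with exact Poisson 95% intervals. The DNp63cKO bar is the higher one in every set, from 2248 CPM in muscle to 12186 CPM in epithelium.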

How the data were processed

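The deposited matrices hold whole-number counts of UMIs per gene and nucleus, not normalized, 1 matrix per library. Per the submitters' processing notes, the genome build was mm10 and the tools were Seurat 4.0.5 in R 4.0.5 and STAR 2.7.11a with STARsolo. Gene annotation, barcode filter and counting of introns: not given in the sources used here. Per the labels' protocols, flash-frozen ureters were pooled by genotype before nuclei were isolated. Kept nuclei had at least 300 genes and at most 5% mitochondrial UMIs. They were clustered together (scanpy 1.11.5, 2000 variable genes, 30 principal components, 15 neighbours, Leiden resolution 1.0, seed 1), and a cluster took the class whose markers had the highest mean fold. The pericyte-like cluster was the one with the highest summed CPM of the rule's pericyte genes over both libraries. Muscle, fibroblast, endothelial and epithelial sets used the same kind of marker rule. UMIs were summed over nuclei and given as CPM of the set's total, with exact Poisson intervals. Ratios had exact conditional binomial intervals and shares exact Clopper-Pearson intervals, all at 95%, in SciPy 1.17.1. Only the ratios and their intervals were tested on simulated data. Genes with 20 or more UMIs over both libraries entered the ratios, with 20 CPM added, and "measured" means that. Named genes are the 7 rule genes, 25 leading genes by the lower of the 2 libraries' log2 values, the 12 highest and 12 lowest ratios among genes with 20 or more UMIs in the higher library and at least as high there as in other nuclei (without mitochondrial, haemoglobin, sex-linked and unnamed genes), and from each list the 5 with most UMIs and the 2 with the largest ratios; the Ren1 values and single-nucleus counts were chosen after their values were seen. 1 gene that this rule names is not reported here. Scrublet's automatic threshold marked 0 nuclei and so did not work; no doublets were removed, and leaving out the top 5% of scores was an alternative. The members and lists were chosen with earlier results of these data known. Alternatives changed the rule, depth, scaling, pseudocount, UMI minimum and free RNA; the cluster-based ones, those without Rgs5 and Notch3 pairs and without shared barcodes were added after the data were seen. Gene positions are from GENCODE M21.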

Additional observations from a re-analysis of the deposited data

How the results depend on the processing

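No paired analysis was possible because each genotype has 1 library. The ratio of the pericyte shares, DNp63cKO over control, was 1.16, and 1.62 with 3 or more pericyte genes or with tighter limits on other cell types, 1.78 without Rgs5 in the rule, 0.887 after thinning to 700 UMIs, 1.84 for members in the pericyte-like cluster and 1.72 for all nuclei of that cluster. The counts of 122 higher and 131 lower genes were 47 and 51 with 3 or more genes, 68 and 66 with tighter limits, 212 and 280 at a pseudocount of 5 CPM, 48 and 35 at 50 CPM, 266 and 312 at 10 or more UMIs, 21 and 14 at 50 or more, 424 and 486 without a UMI filter, 314 and 545 with free RNA subtracted, and 51 and 40 in the cluster's members. Lower genes alone were 347 after thinning, 197 as a mean over nuclei and 199 with median-of-ratios scaling, which shifted all genes by 0.09 on the log2 scale (93 higher). The uroplakin log2 ratio of 0.19 was 0.48 with tighter limits, -0.91 for members chosen after thinning, 0.50 in the cluster's members and 0.92 over all nuclei of the cluster. It was -0.0164 with free RNA subtracted, which the members' own uroplakin level fixed in advance. The mural identity median of 0.61 was 0.35 with 3 or more genes, 0.78 after thinning, 0.43 at 10 or more UMIs, 0.0431 in the cluster's members, 0.00649 over the whole cluster and 0.86 without Rgs5 and Notch3 pairs. Thbs2 turned to 0.11 in the cluster's members. The cause of these moves was not tested, apart from those the alternative's own construction gives (fewer nuclei or genes). Leaving out shared barcodes or requiring 500 genes moved these values by less than their counting error, and the gene counts by less than 1.5 times. With 41 DNp63cKO and 36 control members in the cluster, depth limits its gene-level ratios to the most abundant genes.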

Other observations

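Ren1, which encodes renin, had 2 UMIs in DNp63cKO nuclei of the pericyte-like cluster, 1 in each of 2 nuclei, and 58 UMIs in control nuclei of the cluster, 33 in 1 nucleus and 25 in 1 other. Over all kept nuclei the DNp63cKO library held 210 Ren1 UMIs in 183 nuclei and the control library 111 UMIs in 51 nuclei. The DNp63cKO UMIs were thus spread thinly over many nuclei, and the control UMIs concentrated. Renin cells are mural cells of the kidney's afferent arteriole. Eln, which encodes elastin of the arterial wall, had 7 UMIs in 6 of 86 DNp63cKO nuclei of the cluster and 35 UMIs in 19 of 81 control nuclei (log2 -2.14, -3.88 to -1.28). In the other classes the Eln level was 287 CPM in DNp63cKO and 400 CPM in control endothelium and 173 CPM in DNp63cKO and 293 CPM in control fibroblasts. Hba-a1, a haemoglobin gene of red cells, had 79 UMIs in DNp63cKO nuclei of the cluster, 43 of them in 1 nucleus, and 6 UMIs in control nuclei.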
